A study of Homo sapiens with 4 samples.

Results

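Annexins are proteins that bind negatively charged phospholipids, in most members only when calcium is present. Each has a conserved core that docks on the membrane and a variable N-terminal tail that decides which partners it meets, among them several S100 proteins. They are known for organizing membrane traffic, for resealing torn plasma membrane and for binding exposed phosphatidylserine, and several of them are used as markers of epithelial tumors. The mRNA levels of the annexin family were followed in the MG and non-MG subpopulations of HCT116, a human colorectal carcinoma cell line of epithelial origin. The 10 genes described are ANXA1, ANXA2, ANXA3, ANXA4, ANXA5, ANXA6, ANXA7, ANXA8L1, ANXA10 and ANXA11. Each had a probe whose RefSeq accession matched the gene and whose signal was well above background on all 4 arrays. In total, 15707 genes or unnamed transcripts met this. ANXA9 met it too but was not among the genes listed, and it is described beside them. The family as a whole was selected on the difference of ANXA10 and ANXA8L1 between MG and non-MG cells. That difference is therefore a description and supports nothing.

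The MG cells are those that crossed the membrane of a transwell chamber in repeated rounds of selection, and the non-MG cells are those that stayed on its upper side. Each subpopulation was given either vehicle or 5 µM 5-azacytidine, a cytidine analog that inhibits DNA methyltransferases, for 48 h. Each of the 4 conditions was hybridized to 1 one-color array, so there are no replicates, no test between conditions was possible, and all values come from 1 cell line. Of the 11 colon epithelium markers examined, 7 were well above background on all 4 arrays (EPCAM, CDH1, KRT8, KRT18, KRT19, CDX1 and CDX2), GPA33 was so on 1 array, and VIL1, LGALS4 and CEACAM5 on none. Of 10 markers of immune, fibroblast and endothelial cells, CD14, COL1A1 and VWF stood well above background on all 4 arrays. The other 7, PTPRC, CD3E, COL1A2, COL3A1, PDGFRB, PECAM1 and CDH5, did so on none. COL1A1 was lower in MG cells given vehicle (log2 ratio -0.92, spot error 0.17). CD14 was higher after 5-azacytidine by 1.002 in MG (spot error 0.40) and 0.87 in non-MG cells (spot error 0.29). VWF was higher after 5-azacytidine by 0.70 in MG cells (spot error 0.09). Of the 7 measured epithelial markers, 0 were higher and 1 was lower past 1.5-fold in MG cells given vehicle. Of all genes, 5.68% were higher and 8.24% lower. The median ratio of the 7 was 0.05, where that of all genes was -0.01. The lower marker was CDH1, which encodes the adhesion protein E-cadherin (log2 ratio -0.66, spot error 0.03). With 5-azacytidine its ratio was -0.49, within 1.5-fold. With each array centered on its median, the vehicle ratio of the median gene rose by 0.20. The paper reports no change of CDH1 mRNA in MG cells, by array and by qPCR. The part of these markers in the results was not tested.

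Every level given is a log2 intensity minus the 75th percentile of its array, a percentile that ranged from 75.2 to 98.7 in intensity, and every difference is a log2 ratio of 2 such levels. Levels of different genes come from different probes and are not set against each other. Where 4 levels are listed without further words, they stand in the order vehicle-treated non-MG, 5-azacytidine-treated non-MG, vehicle-treated MG and 5-azacytidine-treated MG cells. The only error that can be given is the spot error. It starts from the median SD between spots of probes printed at least 10 times, at the same brightness. This SD is divided by the square root of the number of spots printed for a probe. It is then combined over the probes and arrays that enter a value. The spot error covers printing and scanning, not cultures or labelings. The non-MG cells lay in row 1 and the MG cells in row 2 of 1 slide, with vehicle in column 3 and 5-azacytidine in column 4, so slide position cannot be told apart from subpopulation or treatment.

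Of the 13 protein-coding annexin genes in RefSeq, 12 had a matched probe. ANXA13, an annexin of intestinal epithelium, was at background on each of the arrays, with intensities from 2.03 to 4.74. No probe carried an accession of ANXA8. ANXA9, an atypical annexin whose core lacks the usual calcium sites, met the same detection rule as the 10 listed genes and is described beside them. Closest to the detection limit among the 10 were ANXA8L1, with an intensity of 15.2 on its dimmest array, and ANXA10, with 18.03. The lowest intensity of any probe well above background was between 9.95 and 11.8 on these arrays.

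With vehicle, 3 of the 10 annexins differed between MG and non-MG cells by more than 1.5-fold, compared with 13.9% of all genes measured. ANXA3 and ANXA8L1 were higher in the MG cells, and ANXA10 was lower. Of all genes, 5.68% were higher and 8.24% were lower past this fold. With 5-azacytidine on both subpopulations, a comparison that uses the other 2 arrays, ANXA3, ANXA8L1 and ANXA6 were higher and ANXA10 was lower, which is 4 of 10 against 13.1% of all genes. Of all genes, 5.74% were higher and 7.33% lower there. Because the family was selected on this difference, nothing is read from these counts. These shares move with the scaling of the arrays. With each array centered on its median, the ratios of MG over non-MG cells rose for the median gene by 0.20 with vehicle and by 0.26 with 5-azacytidine. The genes higher and lower in the MG cells with vehicle then numbered 2127 and 601 in place of 892 and 1295, and those with 5-azacytidine 3005 and 397 in place of 902 and 1151.

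**Figure D1:**
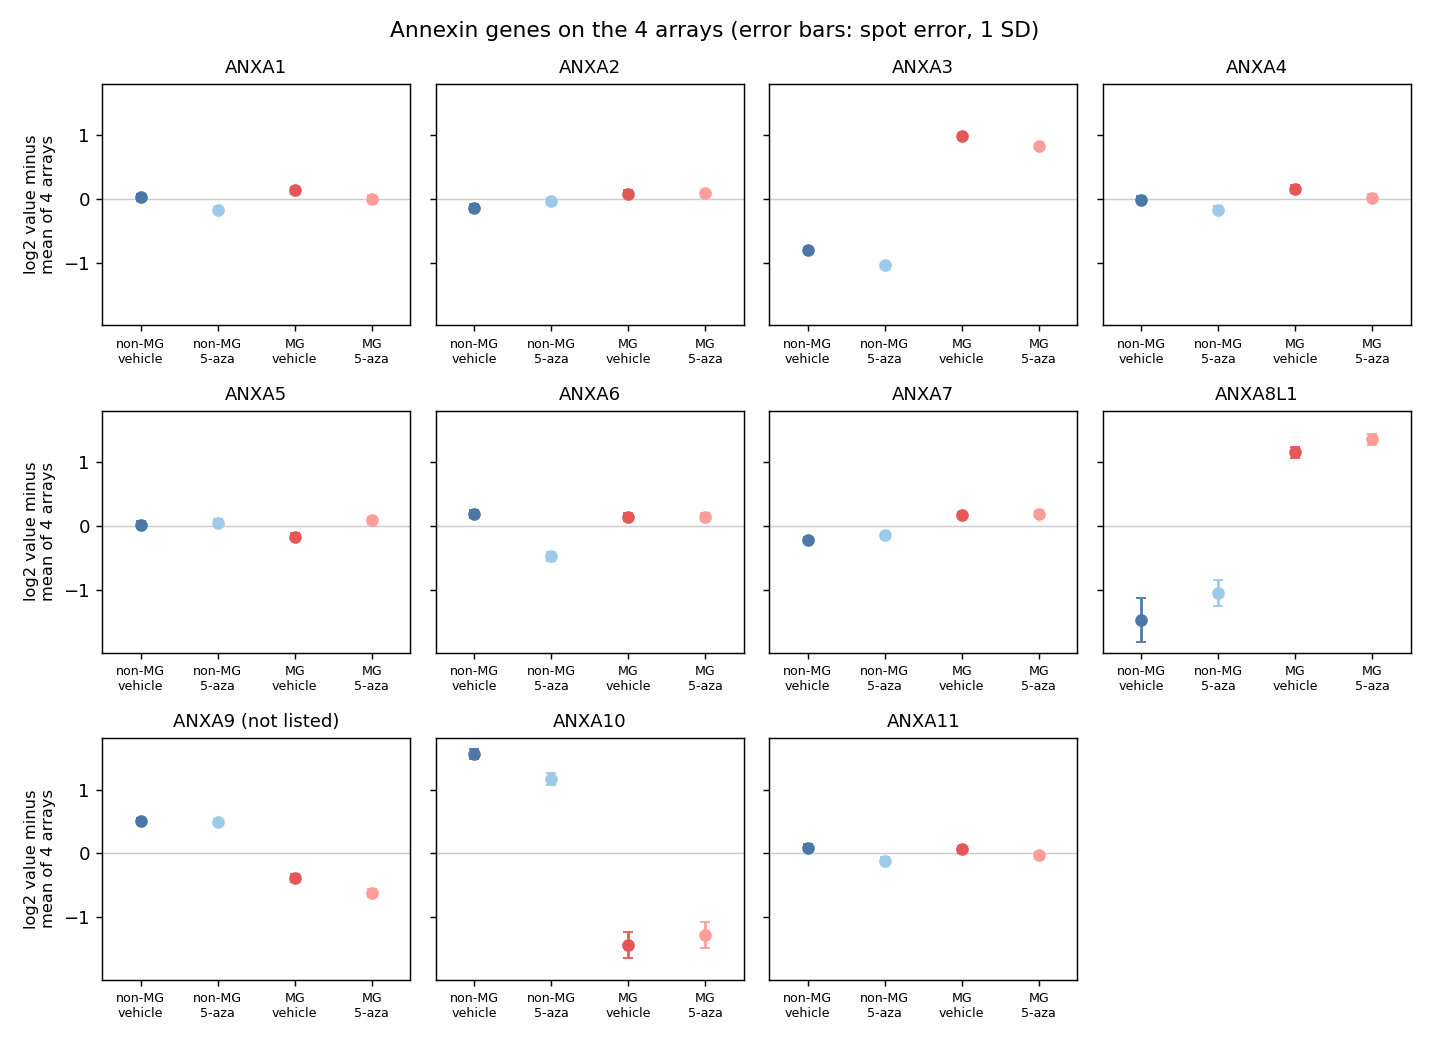
Log2 level of each annexin on the 4 arrays after subtraction of its own mean over the arrays (y axis, log2 units), with blue points for non-MG cells, red points for MG cells, pale points for 5-azacytidine and bars for the spot error (1 SD). ANXA3, ANXA8L1, ANXA9 and ANXA10 differ between the subpopulations past 1.5-fold under both treatments. Of all genes, 13.9% do with vehicle and 13.1% with 5-azacytidine, each comparison taken alone. With normexp background correction ANXA9 does not pass under either treatment. ANXA6 is low in the non-MG cells with 5-azacytidine, and each of the other genes spans at most 0.42.

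ANXA10 is normally made by the gastric mucosa, lacks most of the calcium-binding sites of its relatives, and is used in pathology as a marker of serrated lesions of the colon. Non-MG cells had a level of 0.56 under vehicle and 0.16 under 5-azacytidine, whereas MG cells had levels of -2.45 and -2.29. Both MG arrays lay below both non-MG arrays, which is a description only, since the family was selected on this gene. Under vehicle ANXA10 was 8.05-fold lower in MG cells (log2 ratio -3.01, spot error 0.22), and only 2 of the 15707 genes had a lower ratio. After 5-azacytidine it was 5.48-fold lower (log2 ratio -2.45, spot error 0.22). Between the arrays of MG cells the difference of 0.16 was within the spot error of 0.29. With normexp background correction, which lifts dim signals, the ratios shrank to -1.30 and -1.02 and stayed past 1.5-fold.

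The 250 bases before the transcription start of ANXA10 are shown because 5-azacytidine acts on DNA methylation, which in human cells falls mostly on cytosines of CpG dinucleotides. CpG dinucleotides are in capitals, and the stretch, chr4:168092287-168092536 on the plus strand of GRCh38.p14 as RefSeq gives it, holds 0 of them. Of 35116 promoters in the same table, 6.06% hold none in this window, and the median is 11.
ANXA10: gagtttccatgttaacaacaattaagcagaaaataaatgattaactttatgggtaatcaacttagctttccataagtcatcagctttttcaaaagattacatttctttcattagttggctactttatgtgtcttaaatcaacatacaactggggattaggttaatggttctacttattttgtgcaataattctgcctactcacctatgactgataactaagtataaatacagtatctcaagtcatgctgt

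ANXA8L1 is a near-identical copy of ANXA8, an annexin of late endosomes found in stratified epithelia, and the probe sequence was not used here, so the signal may come from either gene. Non-MG cells had a level of -2.51 under vehicle and -2.09 under 5-azacytidine, whereas MG cells had levels of 0.12 and 0.32. Both MG arrays lay above both non-MG arrays, as they also did for ANXA2, ANXA4 and ANXA7, at ratios within 1.5-fold. The share of all genes with this order of arrays is not given. The family was also selected on ANXA8L1, so nothing is read from the order. The intensities behind the non-MG values, 15.2 and 17.7, were near the detection limit, compared with 107 and 121 in the MG cells. The MG cells were 6.19-fold higher with vehicle (log2 ratio 2.63, spot error 0.35) and 5.31-fold higher with 5-azacytidine (log2 ratio 2.41, spot error 0.22). With normexp correction the ratios were 1.11 and 0.94.

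The promoter of ANXA8L1, chr10:46375526-46375775 on the plus strand, has 8 CpG dinucleotides in its 250 bases, which 56.3% of promoters reach or pass. It is shown in the same way.
ANXA8L1: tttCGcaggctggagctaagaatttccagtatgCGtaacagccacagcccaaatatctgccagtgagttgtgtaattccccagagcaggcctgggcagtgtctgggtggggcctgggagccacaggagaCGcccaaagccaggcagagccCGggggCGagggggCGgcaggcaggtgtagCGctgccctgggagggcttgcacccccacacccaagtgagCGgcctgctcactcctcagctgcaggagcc

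ANXA3, an annexin described in neutrophil granules and in several carcinomas, was printed 10 times on each array, which gave ratios with a spot error of 0.03. The mean over spots was 3.47 under vehicle (SD between spots 0.04) and 3.22 under 5-azacytidine (0.05) for non-MG cells. For MG cells it was 5.26 (0.11) and 5.10 (0.04). The lowest spot on an MG array was 4.98, and the highest on a non-MG array was 3.54. ANXA3 was thus 3.46-fold higher in the MG cells with vehicle (log2 ratio 1.79, spot error 0.03) and 3.67-fold higher with 5-azacytidine (log2 ratio 1.88, spot error 0.03), ranks 17 and 18 among all genes from the top. The 7 other settings of background, scaling, filter and probe choice gave ratios from 1.74 to 1.99 with vehicle and from 1.79 to 2.13 with 5-azacytidine. Spots of 1 array share 1 RNA sample and are not replicates of a condition.

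In contrast to the CpG-free promoter of ANXA10 on the same chromosome, the promoter of ANXA3, chr4:78551520-78551769 on the plus strand, holds 18 CpG dinucleotides, a number that 36.8% of promoters reach or pass.
ANXA3: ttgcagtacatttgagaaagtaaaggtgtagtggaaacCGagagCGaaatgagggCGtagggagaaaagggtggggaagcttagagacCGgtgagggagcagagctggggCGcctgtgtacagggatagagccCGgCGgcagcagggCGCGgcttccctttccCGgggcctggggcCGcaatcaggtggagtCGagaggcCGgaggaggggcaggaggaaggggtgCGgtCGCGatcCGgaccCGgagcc

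ANXA9 was printed 10 times as well, and was lower in MG cells. The mean over spots was -0.73 under vehicle (SD between 10 spots 0.17) and -0.75 under 5-azacytidine (8 spots, 0.11) for non-MG cells. For MG cells it was -1.63 (10 spots, 0.28) and -1.86 (9 spots, 0.16), with outlier spots left out. The lowest non-MG spot, -1.03, lay above the highest MG spot, -1.27. ANXA9 was 1.87-fold lower in the MG cells with vehicle (log2 ratio -0.90, spot error 0.08) and 2.17-fold lower with 5-azacytidine (log2 ratio -1.12, spot error 0.08). With normexp correction the ratios were -0.38 and -0.47, and neither passed 1.5-fold.

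**Figure D2:**
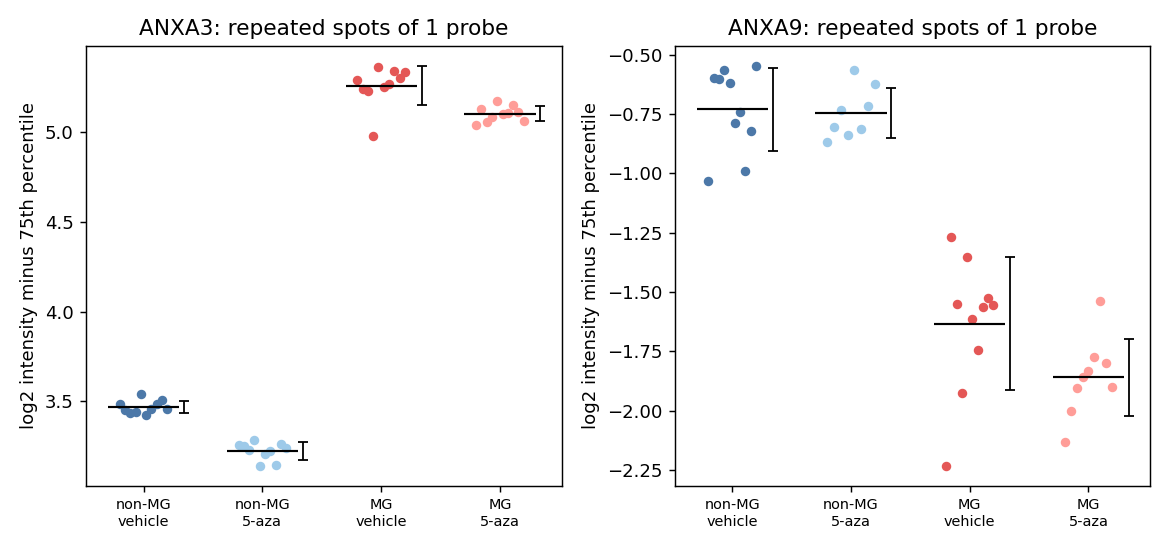
Each point is 1 spot of the ANXA3 probe (left) or the ANXA9 probe (right) as log2 intensity minus the 75th percentile of the array (y axis), by array, with the mean as a line and the SD between spots as a bar. The spots of the MG cells lie above those of the non-MG cells for ANXA3 and below them for ANXA9, with no overlap.

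ANXA6 carries a duplicated annexin core and is known for its part in endocytosis and cholesterol transport. Its level was 2.76 in vehicle-treated non-MG cells, 2.71 in vehicle-treated MG cells and 2.71 in 5-azacytidine-treated MG cells, while the array of 5-azacytidine-treated non-MG cells stood apart at 2.09. With 5-azacytidine the gene was 1.59-fold lower in the non-MG cells (log2 ratio -0.67, spot error 0.09) and differed by -0.01 (spot error 0.08) in the MG cells. The response of the MG cells minus that of the non-MG cells was 0.66 (spot error 0.12), a difference that was not tested. The same array put ANXA6 1.53-fold higher in the MG than in the non-MG cells after 5-azacytidine (log2 ratio 0.62), just past 1.5-fold. With quantile normalization this ratio was 0.55 and did not pass. ANXA6 was measured by 1 spot, so its value rests on that spot of 1 array.

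RefSeq lists more than 1 start for ANXA6. The 250 bases before the upstream start, chr5:151157780-151158029 on the minus strand, hold 19 CpG dinucleotides, and those before the downstream start hold 10. The upstream promoter is shown because ANXA6 was the 1 annexin past 1.5-fold with 5-azacytidine.
ANXA6: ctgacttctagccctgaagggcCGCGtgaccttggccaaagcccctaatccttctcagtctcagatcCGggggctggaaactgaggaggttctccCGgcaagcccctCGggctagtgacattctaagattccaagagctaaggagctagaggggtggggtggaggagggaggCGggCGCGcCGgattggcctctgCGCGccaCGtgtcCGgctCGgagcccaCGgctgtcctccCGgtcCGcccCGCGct

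**Figure D3:**
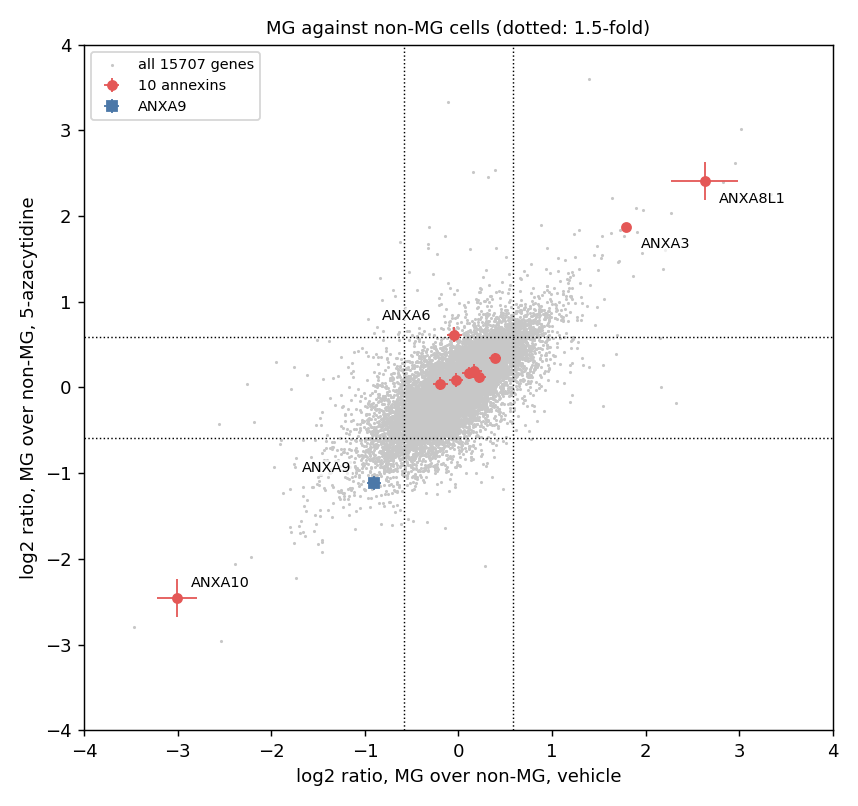
MG over non-MG log2 ratio under vehicle (x axis) and under 5-azacytidine (y axis) for all genes measured (gray), the 10 annexins (red) and ANXA9 (blue), with bars for the spot error and dotted lines at 1.5-fold. The axes end at 4, which leaves 3 genes outside. ANXA10, ANXA3, ANXA8L1 and ANXA9 lie past the lines on both axes while the other annexins stay within 0.62 of 0. With normexp correction ANXA9 passes neither line.

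Of the annexins best known for their partners outside the membrane, ANXA1 is the glucocorticoid-induced ligand of formyl peptide receptors, ANXA2 pairs with S100A10 and brings plasminogen to the cell surface, and ANXA5 binds phosphatidylserine on dying cells. The levels of ANXA1 were 6.83, 6.64, 6.94 and 6.81. The MG over non-MG ratios were 0.11 and 0.17 without and with 5-azacytidine (spot errors 0.07 and 0.07). None of these passed 1.5-fold.

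The bright probe of ANXA2 gave 7.75, 7.85, 7.97 and 7.97 and MG over non-MG ratios of 0.22 and 0.12 (spot error 0.07 for each). A second, dim ANXA2 probe was not used, because it was not well above background in 5-azacytidine-treated MG cells, where its intensity was 9.22. On the other arrays it was 17.2, 13.001 and 28.3. Averaged with the bright probe, as under no filter, it turned the MG over non-MG ratio after 5-azacytidine to -0.37. The probe of the processed pseudogene ANXA2P1 had ratios of 0.34 and 0.24, and because its sequence closely resembles ANXA2 mRNA, its signal cannot be assigned to the pseudogene.

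ANXA5 had levels of 5.30, 5.33, 5.11 and 5.37. It was the only one of the 10 with its lowest value in vehicle-treated MG cells besides ANXA10, and its ratio of 5-azacytidine over vehicle in the MG cells, 0.26 (spot error 0.08), was the highest of the 10 in that comparison. It was within 1.5-fold in all 4 comparisons. With median centering the vehicle ratios of MG over non-MG cells for ANXA5, ANXA6 and ANXA11, which were -0.19, -0.04 and -0.03, turned to 0.001, 0.15 and 0.17.

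ANXA4, an annexin of secretory epithelia that binds to apical membranes and vesicles, had levels from 3.04 to 3.37. ANXA7 and ANXA11 share long N-terminal tails and bind calcium sensors of the ALG-2 kind. ANXA11 is also known for tethering RNA granules to lysosomes, and its levels from 4.84 to 5.05 spanned the narrowest range of the 10 genes, 0.21. ANXA7 was measured by 2 probes, with MG over non-MG ratios of 0.39 and 0.40 under vehicle and 0.40 and 0.28 under 5-azacytidine. The mean over its probes, 0.39 with vehicle (spot error 0.06), was the value nearest to 1.5-fold among the 7 that did not pass. With median centering, which scales on signals near background, ANXA7 passed, at 0.59 with vehicle and 0.60 with 5-azacytidine.

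For the response to 5-azacytidine, 0 of the 10 annexins passed 1.5-fold in MG cells, compared with 5.12% of all genes. With the dim ANXA2 probe averaged in, ANXA2 passed, at -0.79. The ratios of 5-azacytidine over vehicle ran from -0.16 for ANXA3 to 0.26 for ANXA5, with a median of -0.003 where that of all genes was -0.02. In the non-MG cells 1 of 10 passed, compared with 3.58% of all genes. That gene was ANXA6, on the lower side, where 1.68% of all genes lay. The other ratios there ran from -0.40 for ANXA10 (spot error 0.12) to 0.42 for ANXA8L1 (spot error 0.40), with a median of -0.18 over the 10 and -0.04 over all genes. ANXA10 and ANXA9, the annexins that were lower in MG cells, had ratios of 5-azacytidine over vehicle there of 0.16 (spot error 0.29) and -0.23 (spot error 0.09), both within 1.5-fold.

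**Figure D4:**
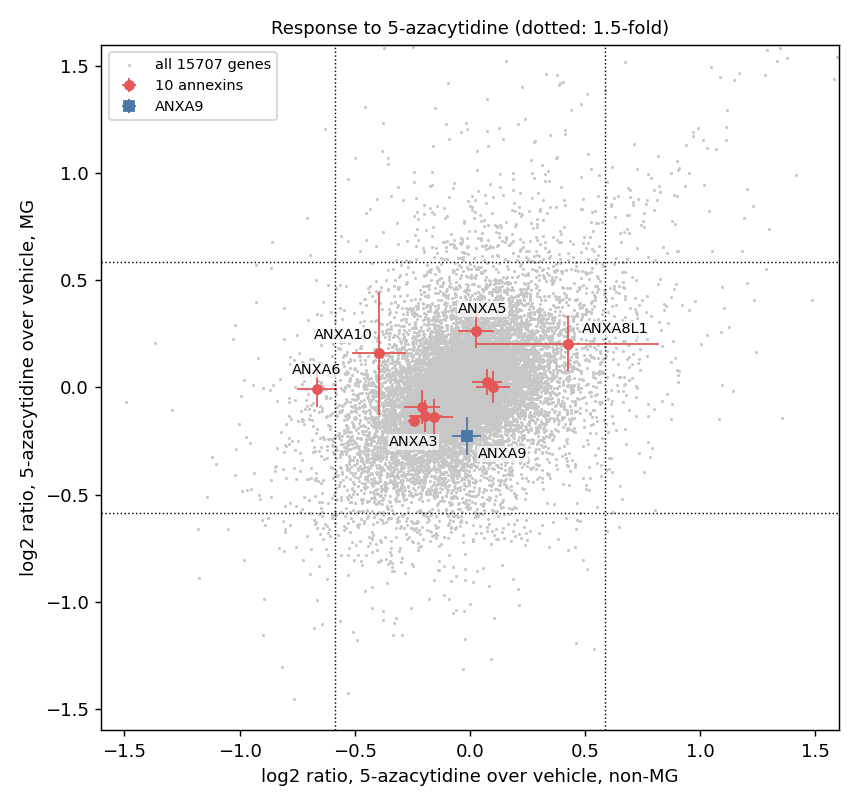
Log2 ratio of 5-azacytidine over vehicle in the non-MG cells (x axis) and in the MG cells (y axis) for all genes measured (gray), the 10 annexins (red) and ANXA9 (blue), with bars for the spot error and dotted lines at 1.5-fold. The axes end at 1.6, which leaves 65 genes outside, and ANXA6 at -0.67 on the x axis is the only annexin past a dotted line.

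Promoters of the family ranged widely in CpG content. ANXA1 and ANXA10 had 0 CpG dinucleotides in the 250 bases before the start, ANXA9 had 4, ANXA8L1 had 8, ANXA3 had 18, ANXA7 had 20, ANXA2 had 28, ANXA5 had 31, and the upstream promoter of ANXA4 had 36. The 3 listed starts of ANXA11 had 9, 22 and 5. Apart from ANXA6, lower in the non-MG cells, none of these annexins was past 1.5-fold after 5-azacytidine in either direction, with the probes used. Of all genes, 5.12% in MG and 3.58% in non-MG cells passed it in either direction. A link between CpG content and response was not tested. The methylation of these promoters was not analysed here.

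**Figure D5:**
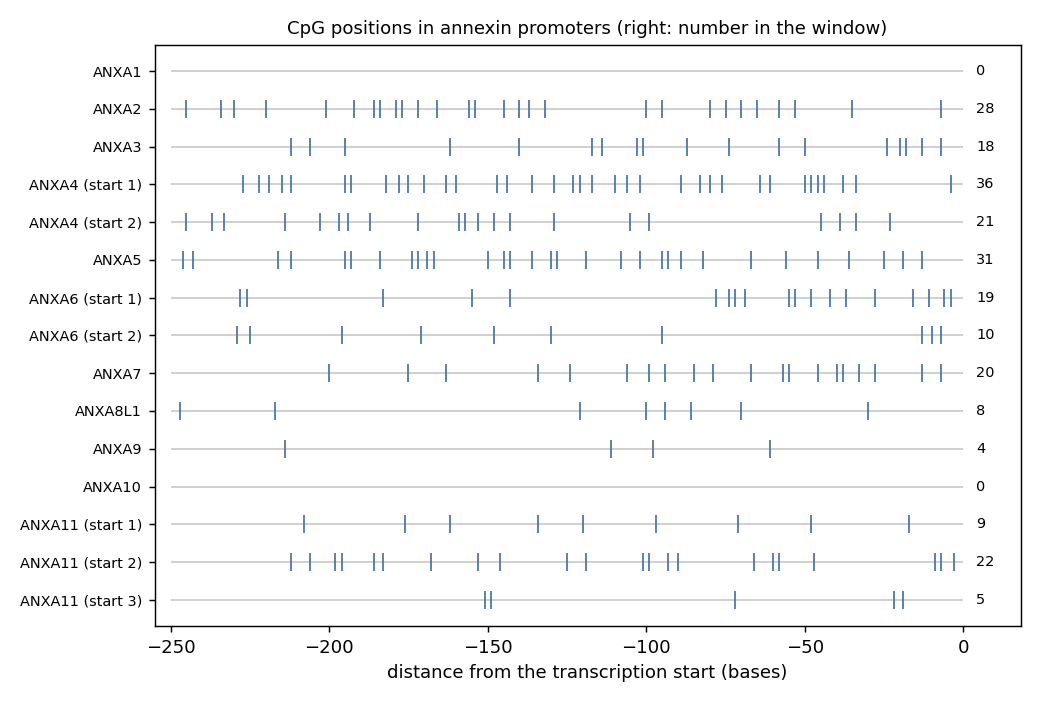
Positions of CpG dinucleotides (ticks) in the 250 bases before each annexin transcription start (x axis, distance from the start in bases), with the number of ticks at the right. ANXA1 and ANXA10 have 0, and ANXA4 has the most, 36 at its upstream start.

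Genes that work with annexins were taken as a list of 17, which holds S100 partners, calcium sensors, formyl peptide receptors, plasminogen factors and scramblases. Of these, 13 were measured. With vehicle 1 was higher in the MG cells and 0 lower, compared with 5.68% and 8.24% of all genes, and their median ratio was 0.08, where that of all genes was -0.01. With 5-azacytidine 3 were higher and 0 lower, compared with 5.74% and 7.33% of all genes, with a median of 0.23 against 0.02. S100A10, the partner of ANXA2, had levels of 4.82, 5.12, 5.39 and 5.70. Its MG over non-MG ratio was 0.56 under vehicle, just short of 1.5-fold, and 0.59 with 5-azacytidine, just past it (spot error 0.07 for each). S100A4, which also binds ANXA2 and is associated with cell motility, had ratios of 0.70 and 0.62. PLSCR1, known as a phospholipid scramblase, had ratios of 0.31 and 0.67. With quantile normalization 1 gene of the list was higher after 5-azacytidine, which was PLSCR1, and with median centering S100A10 passed under vehicle too, at 0.76. No gene of the list passed 1.5-fold with 5-azacytidine within a subpopulation, compared with 5.12% of all genes in MG and 3.58% in non-MG cells.

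ANXA2R, which encodes a proposed receptor of ANXA2 and was picked after its values were seen, had levels of 0.64, 0.18, -0.34 and -0.67. It was 1.98-fold lower in the MG cells with vehicle (log2 ratio -0.99, spot error 0.12) and 1.80-fold lower with 5-azacytidine (log2 ratio -0.85, spot error 0.17). The second ratio was -0.50 with normexp correction and did not pass.

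Membrane repair genes, a list of 22 that holds ferlins, caveolins, ESCRT-III subunits and calpains, had 19 measured members. With vehicle 0 differed between MG and non-MG cells past 1.5-fold, compared with 13.9% of all genes. With 5-azacytidine CAV1, CHMP4B and TRIM72 were higher in MG cells by log2 ratios of 0.80, 0.77 and 0.59 (spot errors 0.04, 0.09 and 0.29), and 0 were lower, compared with 5.74% and 7.33% of all genes. With normexp correction TRIM72 did not pass and the calpain gene CAPN1 did, and with median centering 8 were higher. CAV1, which encodes the coat protein of caveolae, was the gene of this list that passed 1.5-fold within a subpopulation, at -0.61 (spot error 0.04) with 5-azacytidine in the non-MG cells, where 1.68% of all genes were lower, while CHMP4B, an ESCRT-III subunit, was at -0.56 (spot error 0.09). The CAV1 ratio did not pass with quantile normalization, at -0.54, or with normexp correction, at -0.55.

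The lists drawn up around the tissues in which ANXA10 and ANXA8 are normally found gave few values. Of 15 gastric and serrated lesion genes, 2 were measured on all 4 arrays. MUC6, a gastric gland mucin, had an MG over non-MG ratio of -0.72 under vehicle (spot error 0.29) and -0.54 with 5-azacytidine, and TFF1, a gastric trefoil factor, had -0.17 and -0.11. MUC6 did not pass with median centering or normexp correction. By the best probe of each gene, TFF2 and TFF3 stood clear of background on 2 arrays, and AQP5 on 1. CLDN18, CTSE, GKN1, GKN2, SOX2, VSIG1, VNN1, HEPACAM2 and REG4 did so on none, and MUC5AC had no probe. Of 14 stratified epithelium genes 6 were measured, and with vehicle 0 were higher in the MG cells and 1, the laminin gene LAMB3, was lower, at -0.83 (spot error 0.08), compared with 5.68% and 8.24% of all genes. After 5-azacytidine LAMB3 was at -0.26 and 0 of the 6 passed 1.5-fold, compared with 13.1% of all genes. SERPINB5, a serpin of epithelial cells, had ratios on the other side, 0.37 under vehicle and 0.56 under 5-azacytidine, and the second passed with normexp correction and with median centering.

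The genes whose pattern over the 4 arrays was most like that of an annexin were found by the root mean square difference of the 4 levels, each gene first centered on its own mean, among 15706 other genes. For ANXA10 these were ARRDC4, LINC00659 and ANKRD37, with differences of 0.29, 0.33 and 0.34. For ANXA8L1 they were APOBEC3G, TM4SF1 and MIA, with differences of 0.15, 0.19 and 0.27. For ANXA3, added after its values were seen, the nearest genes with a symbol were NRIP1, TM4SF18 and PLK2, with 0.10, 0.11 and 0.13. With 4 arrays, these are descriptions of resemblance and carry no test.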

How the data were processed

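The authors deposited the scanner output of 4 one-color Agilent arrays as linear intensity values, corrected for background within each array by Feature Extraction 11.5.1.1 and not scaled between arrays, and a table of log2 values of 24189 probes, centered per probe. The design refers to hg19. The labels name RNAiso Plus for RNA extraction and the methods an RNeasy kit, and 400 ng of RNA was labeled. Here, log2 intensity minus the 75th percentile of the array over non-control probes was taken, outlier spots were left out, and the spots of a probe and the probes of a gene that were well above background on all 4 arrays were averaged. Of 50594 probes, 29996 (59.3%) were named by accession without version through RefSeq of GRCh38.p14, others kept the file's name, and 19808 were well above background on every array. A gene was counted past 1.5-fold. 1 marker gene is not reported here. No slide block was fitted, since there was 1 slide. The calculation was tested on simulated data. The members, gene lists and alternatives were chosen with earlier results of these data known. Genes outside the family were named by largest ratio within a list or by likeness to ANXA10 and ANXA8L1, and any others after their values were seen. Alternatives were normexp (offset 50) on the median spot and background intensities, median centering, quantile normalization, other filters and folds, the brightest probe and the authors' values, and those for genes outside the 10 were added after seeing the data. Tools were pandas 2.3.3 and numpy 2.4.6 in Python 3.11.15, limma 3.58.1 in R 4.3.3, and matplotlib 3.10.9 for plots.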

Additional observations from a re-analysis of the deposited data

How the results depend on the processing

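The number of annexins past 1.5-fold stayed within 1.5 times the count given under all 9 alternatives for both comparisons of MG with non-MG cells. For 5-azacytidine in the MG cells, 1 annexin in place of 0 passed with the study's filter, with no filter and with the authors' values. It was ANXA2, whose dim probe those settings average in. For 5-azacytidine in the non-MG cells, 0 in place of 1 passed at 2-fold. No member that passed 1.5-fold changed sign. Over all genes the share past 1.5-fold moved more. With vehicle it was 5.05% for MG over non-MG cells under normexp correction and 24.1% with no filter, against 13.9%, and for 5-azacytidine in the MG cells it was 1.18% and 19.3%, against 5.12%. With median centering the genes higher and lower with 5-azacytidine in the non-MG cells numbered 198 and 539, in place of 298 and 264. No paired analysis was possible because each condition has 1 array, and for the same reason no replicate could be left out. Signal near background limits ANXA8L1 and ANXA10.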
